A study of Mus musculus with 8 samples.

Results

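The genes described here are the TGF-beta receptors, the SMADs and the nuclear repressors of SMADs, chosen by name as 10 of the 20172 Ensembl gene identifiers with a value: *Tgfbr1*, *Tgfbr2*, *Tgfbr3*, *Smad2*, *Smad3*, *Smad4*, *Smad7*, *Ski*, *Skil* and *Tgif1*. Their RNA was measured in regulatory T cells (Tregs) from the spleen of adult *Foxp3* YFP-cre mice, in which Foxp3-expressing cells carry a yellow fluorescent protein. CD4 T cells positive for this reporter were sorted by flow cytometry into TNFR2+ and TNFR2- Tregs, where TNFR2 is the TNF receptor encoded by *Tnfrsf1b*, and no stimulation is described for these libraries. Each population had 4 libraries (replicates 1 to 4), so both groups shared the genotype, the tissue and the reporter gate and differed in surface TNFR2. The series design names female mice and the study's methods name both sexes, and the sources do not state whether each library came from its own animal, so p values measure only the spread between these libraries, which may be technical.

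TGF-beta is a cytokine that restrains T cells and that can induce Foxp3. It binds the type II receptor TGFBR2, which recruits and phosphorylates the type I receptor TGFBR1, while the co-receptor TGFBR3 (betaglycan) presents ligand. TGFBR1 then phosphorylates SMAD2 and SMAD3, which join SMAD4 and enter the nucleus to regulate transcription. SMAD7 blocks the receptor step, and SKI, SKIL (SnoN) and TGIF1 bind SMAD complexes in the nucleus and repress their targets.

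The values were normalized counts per gene, made by the authors with DESeq2 from estimated abundances. They summed to between 9576920 and 11492762 per library, and a step seen in the low values of 2806 single-transcript genes put the depth at about 9615000 to 12110000 reads in TNFR2+ and 9100000 to 10980000 reads in TNFR2- Tregs. Divided by this step, the lowest value of any of the 10 genes, *Tgfbr3* in TNFR2+ replicate 1, came to about 181 reads. This is a rough figure, because *Tgfbr3* has several transcripts and its reads were not recovered. The counting error alone of that many reads would be 7.44%. TNFR2- replicate 3 stood apart from the other 7 libraries on the second principal component of all tested genes (16.7% of the variance), at 91.32 against -39.08 to 17.96, so results are also given without it where it matters. *Tnfrsf1b* itself followed the gate, at 2501 ± 544 in TNFR2+ and 1321 ± 168 in TNFR2- Tregs (SD, n = 4), and *Foxp3* was at 3126 ± 219 and 3664 ± 316, a difference that did not pass the test (limma adjusted p = 0.232).

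Markers of other cells were summed per library to describe what else the gates held. The 7 Treg markers, all in the table, summed to 26583 to 30698 in TNFR2+ and 20407 to 24742 in TNFR2- Tregs. They did not move together: 3 were called higher (*Ctla4*, *Ikzf2* and *Cd3e*) and 0 lower. *Il2ra* went the other way without overlap, at 2742 ± 225 against 3482 ± 363 (limma adjusted p = 0.086), and *Foxp3* was also lower, as given above. The cycling markers (4 of 4) summed to 3388 to 6612 and 511 to 1407. The B cell markers (6 of 8) summed to 3902 to 5986 and 1741 to 2800. Most of that sum was *Ighm*, the heavy chain of IgM, at 4608 ± 883 and 1911 ± 391 without overlap (limma adjusted p = 7.45e-04). *Cd22* was at 309 ± 35.6 and 150 ± 70.6, also without overlap (limma adjusted p = 0.0612). The other 4 B cell markers overlapped between the groups, with *Cd79b* at 38.7 ± 20.5 and 24.7 ± 15.3 and *Cd79a* between 0 and 6.1 in all libraries. These 3 sums did not overlap between the groups, and their part in the differences reported for the TGF-beta genes was not tested. The CD8 T cell (2 of 2), myeloid (4 of 9), platelet (1 of 5), erythroid (1 of 6) and cytotoxic lymphocyte markers (4 of 6) had overlapping sums of 46 to 64.2, 175 to 232, 12.2 to 221, 0 to 12.1 and 55.3 to 132 in TNFR2+ Tregs. The corresponding sums in TNFR2- Tregs were 44.5 to 76.1, 129 to 189, 31.2 to 178, 0 to 10.6 and 26.2 to 60.6. Within the cytotoxic list, *Nkg7* was higher in all TNFR2+ libraries, at 64.3 ± 19.3 against 7.83 ± 7.29 (limma adjusted p = 0.00927). *Prf1* (6.92 ± 3.91 and 23.4 ± 18.2) and *Klrk1* (1.54 ± 3.08 and 9.29 ± 17) had lower means in TNFR2+ Tregs. *Klrb1c* (12.4 ± 12.9 and 4.88 ± 5.13) had a higher mean, and the groups overlapped for all of these but *Nkg7*. The part of this list in the differences was likewise not tested. In RNA from sorted pools, fewer expressing cells and less RNA per cell cannot be told apart.

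The promoters of both signaling receptors are shown because *Tgfbr2* was the only gene of the 10 whose RNA differed past the threshold, and *Tgfbr1* encodes its partner. Each is a RefSeq window from 250 bases before to 50 bases after an annotated start on GRCm38.p6, read 5′ to 3′ on the strand of the gene. Capitals mark CAGAC or its reverse complement GTCTG, a SMAD-binding element, and GGCGC or its reverse complement GCGCC, a GC-rich SMAD motif.
*Tgfbr2* promoter, chr9:116175314-116175613, minus strand: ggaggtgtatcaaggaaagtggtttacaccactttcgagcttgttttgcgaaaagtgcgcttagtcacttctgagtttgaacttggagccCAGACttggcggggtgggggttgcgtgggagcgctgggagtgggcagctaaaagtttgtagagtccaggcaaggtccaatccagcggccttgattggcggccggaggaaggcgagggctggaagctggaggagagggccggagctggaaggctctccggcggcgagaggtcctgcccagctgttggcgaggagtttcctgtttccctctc
*Tgfbr1* promoter, chr4:47352972-47353271, plus strand: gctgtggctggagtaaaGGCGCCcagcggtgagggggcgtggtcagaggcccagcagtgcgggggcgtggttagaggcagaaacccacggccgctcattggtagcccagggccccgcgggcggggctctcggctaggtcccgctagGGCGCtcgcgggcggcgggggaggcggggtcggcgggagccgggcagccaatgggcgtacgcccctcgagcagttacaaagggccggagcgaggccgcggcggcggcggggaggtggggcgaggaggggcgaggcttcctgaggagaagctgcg
The *Tgfbr2* window held 1 CAGAC, at position 91 from its 5′ end, and no GGCGC. The *Tgfbr1* window shown, the one at the start of the annotated gene, held no CAGAC and 3 matches to GGCGC counting both strands, 2 of which overlap. Among all 32851 promoter windows, 49.6% held the first motif and 36.9% the second. It was the richer in G and C, at 74.7% with 34 CG dinucleotides against 59% with 15 in *Tgfbr2*, and the medians of all windows were 52.7% and 7. The second RefSeq window of *Tgfbr1*, chr4:47385966-47386265, had the opposite content, with 1 CAGAC at position 48, no GGCGC, 52% G and C and 3 CG dinucleotides. Windows were found for 5 of the 10 genes (10 windows in all), and a match describes letters only and does not show binding.

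The first question was whether the RNA for these 10 genes differed between TNFR2+ and TNFR2- Tregs. Only *Tgfbr2* fell in TNFR2+ Tregs past the threshold, and no gene of the 10 rose. By log2 fold change, 7 of the 10 were lower and 3 were higher in TNFR2+ Tregs, although the third, *Tgif1*, was at 0.00 and turned to -0.01 when libraries were scaled to their upper quartile. Over all genes tested, 50.7% had a log2 fold change below 0. The median log2 fold change of the 10 was -0.29, against -0.01 over all genes tested. The test was limma on log2(normalized count + 1) over the 13990 genes with a mean of at least 10, with p values adjusted after Benjamini and Hochberg and called under 0.05. All 10 genes passed the filter and 1 was called, where 7.91% of all tested genes were called and 3.39% were called lower. The groups did not overlap for 2 of the 10, *Tgfbr2* and *Ski*, both lower in TNFR2+ Tregs, against a background of 7.29% in that direction (8.08% in the other). At an unadjusted p under 0.05, 5 of the 10 were lower (*Tgfbr2*, *Tgfbr3*, *Smad4*, *Smad7* and *Ski*) and none was higher, where 10.7% of all genes tested were lower and 12.3% higher. Without TNFR2- replicate 3, 2 of the 10 were called and 1324 of all genes in place of 1107.

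**Figure D1:**
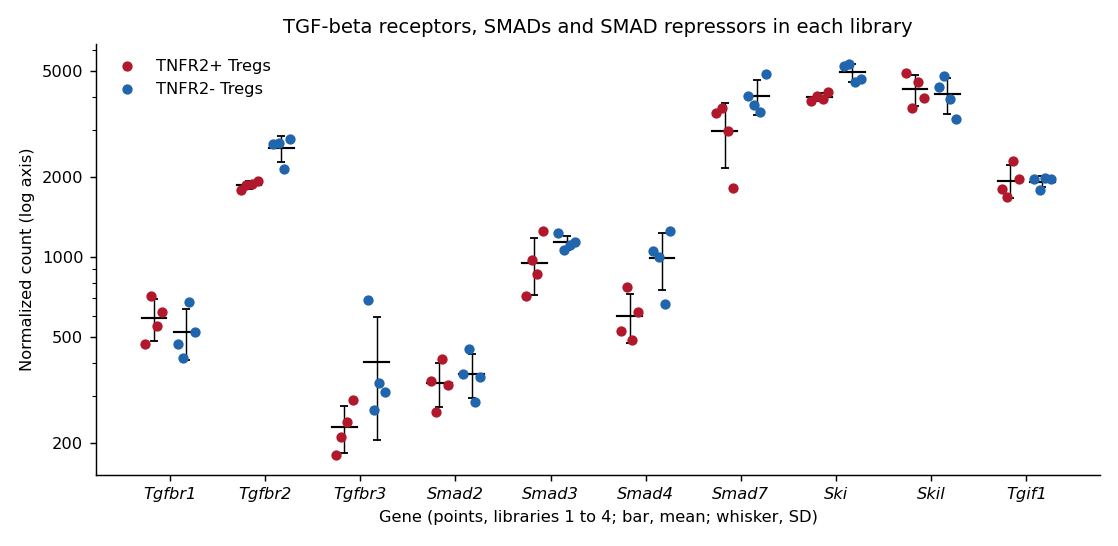
Normalized counts of the 10 genes in every library, on a log axis, with TNFR2+ Tregs in red and TNFR2- Tregs in blue (points, libraries in replicate order; bar, mean; whisker, SD, n = 4). The groups are separate for *Tgfbr2* (at most 1935 against at least 2142) and *Ski* (at most 4148 against at least 4537) and overlap for the other 8 genes.

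Among the receptors, *Tgfbr2* (ENSMUSG00000032440, chromosome 9, 116084293 to 116175360, minus strand, GRCm38) encodes the type II receptor, the subunit that binds ligand. Its normalized counts were 1784, 1867, 1870 and 1935 in TNFR2+ and 2655, 2672, 2142 and 2768 in TNFR2- replicates 1 to 4. Every TNFR2+ library was below every TNFR2- library, and the TNFR2+ libraries were close together, with a coefficient of variation of 3.32% against 11% in TNFR2- Tregs. The mean was 1864 ± 61.9 in TNFR2+ and 2560 ± 283 in TNFR2- Tregs, giving a log2 fold change of -0.45 ± 0.12 (SE), or 26.8% less RNA (fold 0.732, 95% interval 0.614 to 0.872; limma adjusted p = 0.032). The exact two-sided permutation test gave p = 0.0286, the smallest that 4 against 4 libraries allow. The lowest TNFR2- value came from replicate 3, and without that library the log2 fold change was -0.53 (adjusted p = 0.0102). Leaving out any other library, of either group, ended the call, with adjusted p values of 0.0551 to 0.0889 and log2 fold changes of -0.47 to -0.41. Moderating the variances with no trend over intensity ended it too (adjusted p = 0.133).

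*Tgfbr1* (ENSMUSG00000007613, chromosome 4, 47353222 to 47414931, plus strand), the type I receptor kinase, had normalized counts of 469, 714, 550 and 622 in TNFR2+ and 471, 417, 678 and 523 in TNFR2- Tregs. These ranges lay over each other, with the highest TNFR2- value in replicate 3. TNFR2+ Tregs averaged 589 ± 104 and TNFR2- Tregs 522 ± 112, and the log2 fold change of 0.18 ± 0.19 (95% interval -0.24 to 0.60) did not pass the test (adjusted p = 0.635). Leaving out single libraries moved it from 0.08 (without TNFR2- replicate 2 or TNFR2+ replicate 2) to 0.31 (without TNFR2- replicate 3). The interval over all libraries leaves room for a level between 0.847 and 1.51 times that of TNFR2- Tregs.

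*Tgfbr3* (ENSMUSG00000029287, chromosome 5, 107106570 to 107289629, minus strand) encodes betaglycan and overlaps 3 annotated genes on its own strand and 1 on the other. It had the lowest means of the receptors, with values of 180, 210, 239 and 290 in TNFR2+ and 691, 267, 335 and 312 in TNFR2- Tregs. TNFR2- replicate 1 was far above the other 3 libraries of its group, and TNFR2- replicate 2 lay below TNFR2+ replicate 4. The mean was 230 ± 47 against 401 ± 195, and the log2 fold change of -0.72 ± 0.29 did not pass the test (adjusted p = 0.149). Without TNFR2- replicate 1 it was -0.42, the value nearest 0 among the fits that left out a library.

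Within a library, the ratio of *Tgfbr1* to *Tgfbr2* compares the type I with the type II receptor and does not depend on the scaling of libraries. The ratio of normalized counts was 0.263, 0.383, 0.294 and 0.321 in TNFR2+ and 0.177, 0.156, 0.316 and 0.189 in TNFR2- replicates 1 to 4. TNFR2- replicate 3 was within the TNFR2+ range and the other 3 TNFR2- libraries were below it. The mean log2 ratio was -1.68 ± 0.23 against -2.31 ± 0.45, a difference of 0.63 that did not pass an exact two-sided permutation test over 70 relabellings (p = 0.0857, 0.129 after adjustment over 3 ratios). Without TNFR2- replicate 3 the difference was 0.85, with an exact p of 0.0571, the smallest possible with 3 libraries against 4.

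**Figure D2:**
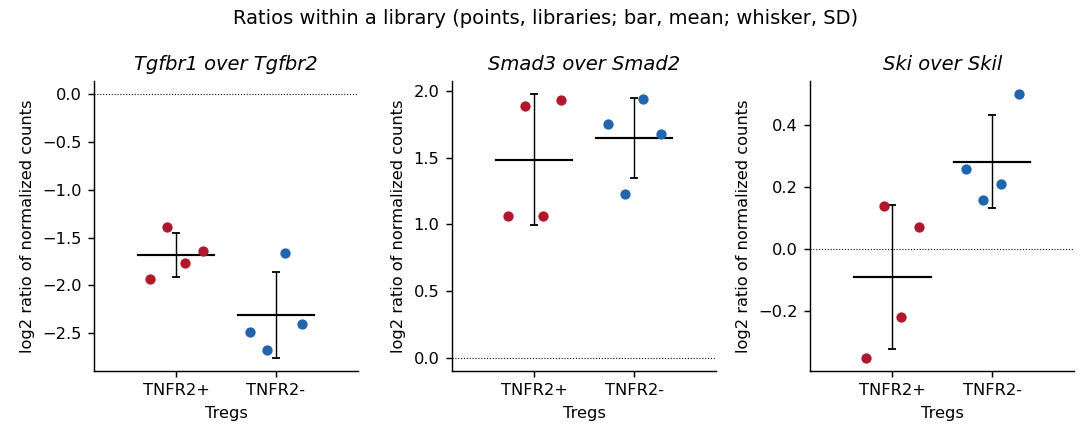
Log2 ratios of normalized counts within each library for *Tgfbr1* over *Tgfbr2*, *Smad3* over *Smad2* and *Ski* over *Skil*, each on its own axis (points, libraries in replicate order; bar, mean; whisker, SD, n = 4). Only the *Ski* over *Skil* ratio has separate groups, at most 0.14 in TNFR2+ and at least 0.16 in TNFR2- Tregs, and none of the 3 passed after adjustment.

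Among the SMADs, *Smad4* (ENSMUSG00000024515, chromosome 18, 73639009 to 73703780, minus strand), the partner shared by all receptor-activated SMADs, was the nearest to the threshold. Its normalized counts were 527, 768, 487 and 623 in TNFR2+ and 1053, 1002, 667 and 1246 in TNFR2- Tregs. The groups overlapped through a single pair, TNFR2- replicate 3 being below TNFR2+ replicate 2. TNFR2+ Tregs averaged 601 ± 125 and TNFR2- Tregs 992 ± 241, and the log2 fold change of -0.71 ± 0.21 (95% interval -1.16 to -0.26) had an adjusted p of 0.0546 in limma. Without TNFR2- replicate 3 it was -0.89 and passed (adjusted p = 0.00984), and without TNFR2+ replicate 2 it was -0.83 and passed narrowly (adjusted p = 0.049). These were the only 2 of the 8 fits leaving out a library in which *Smad4* passed. In the rest its limma adjusted p lay between 0.0843 and 0.148. An annotated gene overlaps *Smad4* on the opposite strand. The libraries were stranded, but whether the quantification used the strand is not given in the sources used here.

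The receptor-activated *Smad3* (ENSMUSG00000032402, chromosome 9, 63646767 to 63757994, minus strand) was measured at 711, 971, 860 and 1256 in TNFR2+ and 1226, 1061, 1104 and 1139 in TNFR2- Tregs. The highest value of all belonged to TNFR2+ replicate 4 and the other 3 TNFR2+ libraries were below every TNFR2- library. Its log2 fold change of -0.28 ± 0.17 (95% interval -0.65 to 0.08) did not pass (adjusted p = 0.35). It was -0.15 without TNFR2+ replicate 1 and -0.43 without TNFR2+ replicate 4, and passed in neither case. *Smad2* (ENSMUSG00000024563, chromosome 18, 76241580 to 76310963, plus strand), the other SMAD that TGFBR1 phosphorylates, was lower than *Smad3* in every library, between 261 and 413 in TNFR2+ and between 286 and 451 in TNFR2- Tregs. The difference for *Smad2* was -0.11 ± 0.21 on the log2 scale (adjusted p = 0.796). The ratio of *Smad3* to *Smad2* was 2.08, 3.73, 2.08 and 3.82 in TNFR2+ and 3.38, 2.35, 3.86 and 3.21 in TNFR2- Tregs. The mean log2 ratios of 1.48 ± 0.49 and 1.65 ± 0.30 differed by -0.17, less than the spread within either group (exact permutation p = 0.6).

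*Smad7* (ENSMUSG00000025880, chromosome 18, 75367529 to 75395935, plus strand) encodes the inhibitory SMAD, which TGF-beta itself induces in many cells. Its normalized counts were 3460, 3623, 2967 and 1819 in TNFR2+ and 4022, 3726, 3484 and 4866 in TNFR2- Tregs. TNFR2+ replicate 4 was the lowest library and TNFR2- replicate 4 the highest, and the groups overlapped only between TNFR2+ replicate 2 and TNFR2- replicate 3. The group averages were 2967 ± 815 and 4025 ± 603, and the log2 fold change of -0.48 ± 0.19 (95% interval -0.89 to -0.06) did not pass (adjusted p = 0.158). It lay between -0.59 and -0.26 when single libraries were left out.

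**Figure D3:**
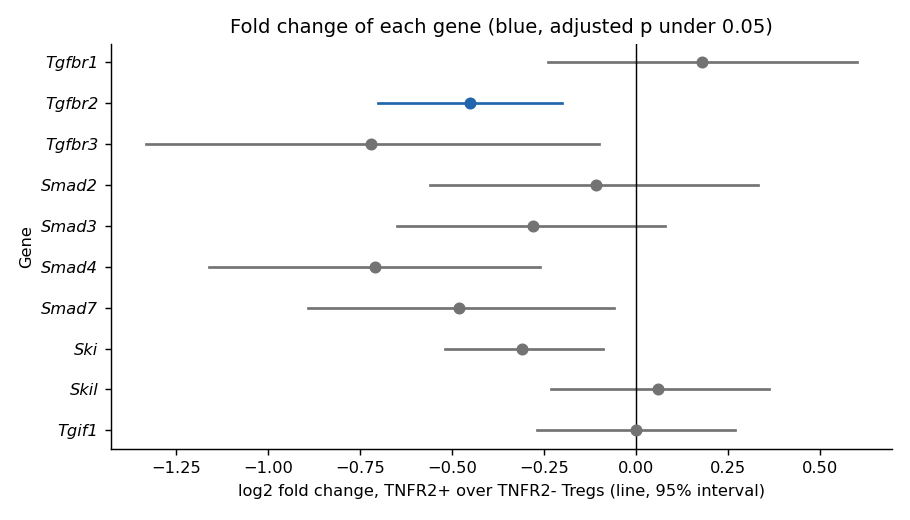
Log2 fold change of TNFR2+ over TNFR2- Tregs for each of the 10 genes, with the 95% interval of the limma fit (line). *Tgfbr2*, in blue, is the gene with an adjusted p under 0.05, and the unadjusted intervals of *Tgfbr3*, *Smad4*, *Smad7* and *Ski* also lie below 0.

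Among the nuclear repressors, *Ski* (ENSMUSG00000029050, chromosome 4, 155154075 to 155222592, minus strand) had normalized counts of 3852, 4010, 3904 and 4148 in TNFR2+ and 5207, 5316, 4537 and 4670 in TNFR2- Tregs. All TNFR2+ libraries were below all TNFR2- libraries. The mean was 3979 ± 131 against 4932 ± 386, that is 19.2% lower, with a log2 fold change of -0.31 ± 0.10 that missed the threshold (limma adjusted p = 0.0775). No alternative brought it past the threshold, with adjusted p values between 0.0562 and 0.244.

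Its relative *Skil* (ENSMUSG00000027660, chromosome 3, 31095058 to 31122577, plus strand) had normalized counts of 4896, 3636, 4542 and 3941 in TNFR2+ and 4350, 4764, 3913 and 3291 in TNFR2- Tregs, and the groups overlapped broadly. The log2 fold change was 0.06 ± 0.14 (95% interval -0.23 to 0.36) and did not pass the test. The ratio of *Ski* to *Skil* was 0.787, 1.1, 0.86 and 1.05 in TNFR2+ and 1.2, 1.12, 1.16 and 1.42 in TNFR2- Tregs, so that every TNFR2- library held more *Ski* than *Skil* counts and the groups did not overlap. The mean log2 ratio was -0.09 ± 0.23 against 0.28 ± 0.15, a difference of -0.37 with the smallest exact permutation p of the design (0.0286), which was 0.0857 after adjustment over the 3 ratios. *Tgif1* (ENSMUSG00000047407, chromosome 17, 70844205 to 70853546, minus strand), a homeodomain repressor, was nearly level, at 1934 ± 270 and 1918 ± 92.9, with a 95% interval of -0.27 to 0.27 around a log2 fold change of 0.00 (limma adjusted p = 0.991).

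To compare levels between genes, normalized counts were divided by the length of the longest protein-coding transcript in kilobases. *Tgif1* then had the highest level, at 1128 ± 157 per kilobase in TNFR2+ and 1119 ± 54.2 in TNFR2- Tregs. *Smad7* (694 ± 190 and 941 ± 141), *Ski* (721 ± 23.7 and 893 ± 70) and *Skil* (633 ± 84.9 and 607 ± 93.8) followed, so on this scale the 4 antagonists of the pathway were all above its receptors and signaling SMADs. *Tgif1* and *Smad7* overlapped in TNFR2- Tregs only. *Smad7* and *Ski* overlapped in both populations, and *Ski* and *Skil* overlapped in TNFR2+ Tregs only. Below a clear gap came *Tgfbr2* at 230 ± 7.65 and 316 ± 34.9 per kilobase, then *Smad4* (178 ± 36.9 and 293 ± 71.2) and *Smad3* (187 ± 45.3 and 222 ± 13.7), each overlapping its neighbour. *Tgfbr1* was lower again, at 102 ± 18.1 and 90.7 ± 19.5, with no overlap with *Smad3* in either population, and it overlapped *Tgfbr3* in TNFR2- Tregs only. *Tgfbr3* (37.8 ± 7.72 and 65.9 ± 32) and *Smad2* (41.5 ± 7.74 and 44.9 ± 8.34) were the lowest and overlapped each other in both populations. The order depended on the transcript taken as the length. With the median length of the protein-coding transcripts, an alternative chosen after seeing the data, *Smad7* ranked 1 and *Smad3* rose to rank 2, and *Tgfbr3* ranked 10.

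The genes whose values over the 8 libraries were most like those of *Tgfbr2* were *Gbp9*, a guanylate-binding protein, *Nfkbid*, an atypical inhibitor of NF-κB, and *Rap1b*, a small GTPase. Likeness was the root mean square difference of log2 values after centring each gene, and these genes differed from *Tgfbr2* by 0.0424, 0.0543 and 0.0632, where the median of the 10245 genes compared was 0.443. Their log2 fold changes were -0.43, -0.38 and -0.41, and none of the 3 passed the test alone (adjusted p = 0.0569, 0.0934 and 0.0648). In each of them, TNFR2- replicate 3 was the lowest of its group, at 1217, 1124 and 2633, as it was for *Tgfbr2*. Because the genes were picked for their likeness to *Tgfbr2* over these libraries, the similar fold changes and this low library follow from the choice.

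The other genes of the pathway were taken in 5 lists chosen by name. In the list of ligands and their release from latency, 13 of 14 genes were in the table and 10 were tested, of which 3 rose in TNFR2+ Tregs and none fell, against 4.52% of all genes called higher. At an unadjusted p under 0.05 the limma fit had 5 of them higher and 0 lower, where the shares of all genes were 12.3% and 10.7%. The log2 fold changes of the 10 had a median of 0.51, and 8 were above 0. *Tgfb1*, the ligand itself (chromosome 7), had normalized counts of 1963, 2145, 1849 and 1674 in TNFR2+ and 1233, 1334, 1279 and 1386 in TNFR2- Tregs. Every TNFR2+ library was higher, and *Tgfb1* rose by 0.54 ± 0.12 on the log2 scale (adjusted p = 0.0157), the opposite direction to its receptor *Tgfbr2*. This call was lost without TNFR2+ replicate 2 (0.48, adjusted p = 0.0658).

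*Itgav* and *Itgb8* encode the chains of integrin αvβ8, which releases active TGF-beta from its latent form on the Treg surface. *Itgav* was at 3335, 3384, 4102 and 3273 in TNFR2+ and 1910, 1553, 1848 and 848 in TNFR2- Tregs, giving a log2 fold change of 1.26 ± 0.22 (limma adjusted p = 0.00339). *Itgb8* was at 987, 801, 903 and 594 and at 340, 184, 535 and 147, giving a log2 fold change of 1.60 ± 0.34 (limma adjusted p = 0.0111). For both chains all TNFR2+ libraries were above all TNFR2- libraries, and both calls held in all 8 fits that left out a library. *Lrrc32*, which encodes GARP, the anchor of latent TGF-beta, and the protease gene *Furin* were added once their values had been seen. *Lrrc32* narrowly missed the threshold, with no overlap between groups (1512 ± 209 against 1075 ± 113; log2 fold change 0.49; adjusted p = 0.0511), and *Furin* was at 1088 ± 167 and 1281 ± 342 (adjusted p = 0.552).

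**Figure D4:**
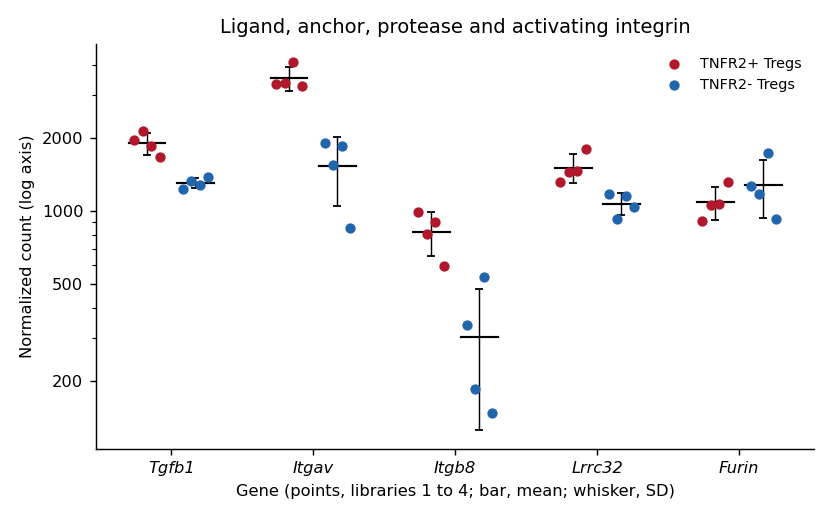
Normalized counts in every library, on a log axis, of the ligand *Tgfb1*, the integrin chains *Itgav* and *Itgb8*, the anchor *Lrrc32* and the protease *Furin* (points, libraries in replicate order; bar, mean; whisker, SD, n = 4). TNFR2+ Tregs (red) are above TNFR2- Tregs (blue) in every library for the first 4 genes and overlap them for *Furin*.

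The BMP and activin branch uses other receptors of the same family. Of its 16 listed genes, 10 were tested, 1 rose and none fell (4.52% of all genes were called higher), with a median log2 fold change of -0.12. At an unadjusted p under 0.05, 2 were higher and 3 lower, where the shares of all genes were 12.3% and 10.7%. The riser was *Bmpr2*, the type II BMP receptor (chromosome 1), at 1116, 699, 943 and 757 in TNFR2+ and 621, 261, 582 and 293 in TNFR2- Tregs. The groups did not overlap, and TNFR2+ Tregs were higher by 1.08 ± 0.28 on the log2 scale (adjusted p = 0.0316), opposite in sign to that of *Tgfbr2*. The call was lost without TNFR2- replicate 2 (0.87, adjusted p = 0.091), TNFR2- replicate 4 (0.92, 0.0834), TNFR2+ replicate 1 (0.96, 0.0956) or TNFR2+ replicate 3 (1.04, 0.0855). *Smad5*, a BMP-activated SMAD, was at 246 ± 36.3 and 288 ± 24.8 (adjusted p = 0.513).

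In the list of SMAD regulators and cofactors, 20 of 23 genes were tested, 2 fell and none rose, against 3.39% of all genes called lower, and the median was -0.09. At an unadjusted p under 0.05 there were 6 lower and 0 higher, where the shares of all genes were 10.7% and 12.3%. Both genes that fell encode ubiquitin ligases of the NEDD4 family that act on TGF-beta receptors or SMADs. *Smurf1* (chromosome 5) was at 372, 394, 574 and 485 in TNFR2+ and 698, 874, 791 and 800 in TNFR2- Tregs, without overlap, and the log2 fold change was -0.81 ± 0.17 (limma adjusted p = 0.0121). This call held in all 8 fits that left out a library. *Nedd4l* was at 131, 116, 115 and 209 and at 328, 505, 173 and 324, where TNFR2- replicate 3 was below TNFR2+ replicate 4. Its log2 fold change of -1.16 ± 0.32 (adjusted p = 0.0419) was -1.44 without that TNFR2- library (adjusted p = 0.00729) and passed in 2 of the 8 fits that left out a library. The adjusted p in the other 6 lay between 0.0887 and 0.131, and protein-coding scaling ended the call too (0.0531). The related ligase gene *Smurf2*, also in the list, was at 677 ± 103 and 755 ± 89.2 (adjusted p = 0.605).

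Target genes were taken in a list that TGF-beta is known to induce in T cells or other cells and one that it is known to repress. Of 11 listed as induced, 8 were tested, 2 rose and none fell, where 4.52% of all genes were called higher, and the median log2 fold change was 0.48. At an unadjusted p under 0.05 there were 4 higher and 1 lower, where the shares of all genes were 12.3% and 10.7%. *Nt5e*, which encodes the ectoenzyme CD73 (chromosome 9), was at 3158, 2317, 3137 and 2015 in TNFR2+ and 1346, 1022, 1635 and 790 in TNFR2- Tregs. The groups did not overlap and the log2 fold change was 1.17 ± 0.22 (limma adjusted p = 0.00506). *Ccr6*, a chemokine receptor gene on chromosome 17, was at 124 ± 18.3 and 55.1 ± 1.91, higher by 1.14 ± 0.29 on the log2 scale (adjusted p = 0.0285). The *Ccr6* call passed in 2 of the 8 fits that left out a library, without TNFR2- replicate 3 or TNFR2- replicate 4, and its adjusted p in the other 6 was 0.0537 to 0.0826. With no filter the adjusted p was 0.0509.

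The list also held genes that did not pass the test, named here after their values were seen. *Pmepa1*, a direct SMAD target, was at 577 ± 46.6 and 367 ± 158 (log2 fold change 0.75; adjusted p = 0.106). *Itgae*, which encodes CD103, was at 1092 ± 436 and 576 ± 315 (0.98; adjusted p = 0.124).

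Of 10 genes listed as repressed by TGF-beta, 7 were tested, 1 rose and none fell, again beside 4.52% of all genes called higher, with a median of 0.32. At an unadjusted p under 0.05, 3 were higher and 0 lower, again beside shares of 12.3% and 10.7% of all genes. *Gata3*, a transcription factor gene on chromosome 2, was at 2239, 2802, 3115 and 2965 in TNFR2+ and 1691, 1545, 2177 and 1779 in TNFR2- Tregs. It rose by 0.63 ± 0.14 on the log2 scale without overlap between the groups (adjusted p = 0.0159). The call was lost without TNFR2- replicate 2 (adjusted p = 0.0551), TNFR2+ replicate 2 (0.0519) or TNFR2+ replicate 3 (0.0577). *Myc* was at 596 ± 139 and 794 ± 194 (log2 fold change -0.41; adjusted p = 0.29). The medians of the induced and the repressed list were thus both above 0.

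**Figure D5:**
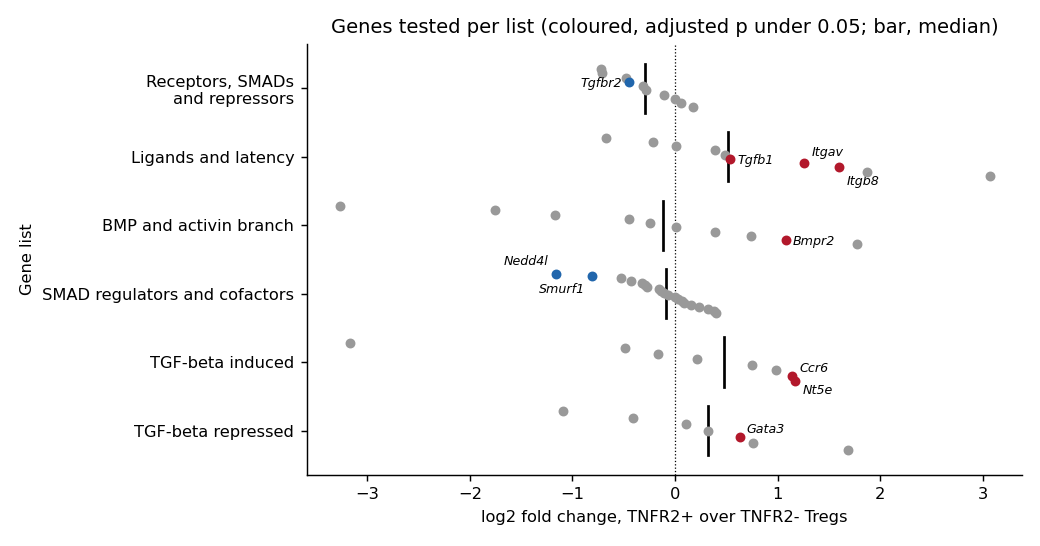
Log2 fold change of TNFR2+ over TNFR2- Tregs for the tested genes of each list, with genes of an adjusted p under 0.05 named and coloured (red, higher; blue, lower; grey, not past the threshold; bar, median of the list). The median of the receptors, SMADs and repressors is -0.29 and that of the ligand and latency list 0.51.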

How the data were processed

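RNA was measured in 8 libraries, 4 of TNFR2+ and 4 of TNFR2- Tregs, grouped by their sample titles. The authors sequenced stranded libraries of total RNA, quantified them with Salmon 1.3.0 on GRCm38 transcripts and normalized the result, and the deposited signal is the gene count normalized by DESeq2 1.28, not on a log scale. How transcripts were summed to genes is not given in the sources used here. A step in low values (within 0.1 of a whole multiple for 69.7% to 96.4% of them, 20% by chance) gave the estimated depths. It did not give the reads of genes with several transcripts, so no model of read counts was fitted.

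Identifiers were matched to GENCODE on GRCm38 (20008 of 20172). Values were taken as log2(normalized count + 1), which understates the change of low genes. The genes whose mean reached 10 over the 8 libraries were tested with limma 3.58.1 in R 4.3.3, with an intensity trend, two-sided and without a replicate block, with Benjamini-Hochberg adjusted p values over all 13990 genes at a threshold of 0.05. The procedure was tested on simulated data. For single values an exact two-sided permutation test was run over 70 relabellings. Alternatives were the pseudocount, the filter, the moderation, the scaling, a replicate block and leaving out each library.

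All genes of the family were named, with the called genes of each pathway list (or, where fewer than 2 passed, also its genes of highest mean) and the 3 genes most like *Tgfbr2*. The genes and lists were chosen with earlier results of these data known. Near-identical transcripts (95% identity over at least 50% of the length) were searched with blastn 2.17.0, and none was found for the genes named by this rule or for *Tnfrsf1b* and *Foxp3*. Annotated genes overlap *Itgav*, *Nedd4l*, *Gata3* and *Foxp3* on the opposite strand and *Bmpr2*, *Smad5*, *Smurf1*, *Gata3*, *Gbp9* and *Foxp3* on the same strand, beside those given for *Tgfbr3* and *Smad4*. Reads may be shared between genes on the same strand. On opposite strands they may be shared only if the quantification did not use the strand, which is not stated. Promoter sequences came from RefSeq (GRCm38.p6). Plots were drawn with matplotlib 3.10.9.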

Additional observations from a re-analysis of the deposited data

Results flagged for a closer look

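The highest and lowest library of each group of 4 was compared with its nearest neighbour for the 10 genes, the named pathway genes and both genes of the gate, 46 groups in all. A library stood apart in 3 of them, where the gap, as a share of the whole range of the group, exceeded the critical value of Dixon's test at the 95% level, and chance gives about 1 in 20. *Tgfbr3* in TNFR2- replicate 1 was at 691, with the other 3 libraries of its group at 267 to 335, a gap of 0.84 of the range. *Tgif1* in TNFR2- replicate 2 was at 1780, just below a narrow cluster of 1953 to 1982 (gap 0.86). *Itgav* in TNFR2+ replicate 3 was at 4102, above 3273 to 3384 in the other libraries (gap 0.866).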

How the results depend on the processing

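Without an intensity trend, 465 genes were called in place of 1107 (283 higher and 182 lower, 425 of them called in both), none of the 10 genes was called, and the calls fell to 0 in every pathway list except the induced list, with 1. The number called among the 10 was 2 (*Smad4* added) with a minimum mean of 50, with no filter, with robust moderation, with upper-quartile scaling and with a replicate block. With no filter the induced list had 1 call and a median of 0.22, and the BMP and activin median turned to 0.16. At a minimum mean of 50 the medians were 0.75 for the induced and 0.69 for the repressed list. With protein-coding scaling the regulators had 1 call and a median of -0.02. *Tgif1* turned to -0.01 with upper-quartile scaling.

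Replicate numbers were shared between groups, but over all tested genes same-numbered libraries did not deviate together (correlations of -0.0386 to 0.000542). The block is thus an alternative only. Single genes could differ from this: with the block the SE was 0.12 in place of 0.22 for *Nt5e* and 0.18 in place of 0.28 for *Bmpr2*. For *Ccr6* it was 0.32 in place of 0.29. With the block, 1183 genes were called, the BMP and activin list and the repressed list had 2 calls each, and the induced list had 3 (2 higher and 1 lower) although *Ccr6* lost its call (adjusted p = 0.057). The *Ski* to *Skil* difference of -0.37 had an exact p of 0.125, the smallest that 4 pairs allow, so that test could not have passed.

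Leaving out single libraries gave 636 to 1324 genes called and 0 to 2 of the 10. The ligand list had 2 to 5 calls, BMP and activin 0 to 1 (median -0.21 to 0.04), regulators 1 to 2, induced 1 to 3 and repressed 0 to 2 (median 0.26 to 0.56). *Tgif1* ranged from -0.08 to 0.07, *Skil* from -0.03 to 0.14 and *Smad2* from -0.22 to 0.00. The causes were not tested. With 4 libraries a group, a 95% interval such as that of *Tgfbr3* (-1.33 to -0.10) spans both small and large differences.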
